A study of Mus musculus with 6 samples.

Results

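The core circadian clock genes of mouse skeletal muscle were examined in 3 transgenic and 3 wild-type mice. The 10 genes were Arntl, Clock, Per1, Per2, Per3, Cry1, Cry2, Nr1d1, Dbp and Bhlhe40. They were chosen by name, as the probe sets whose single gene symbol in the platform annotation is one of these, and 1 probe set of 35557 matched each gene. They make up 10 of the 19938 genes tested.

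Expression was measured with Affymetrix MoGene arrays on total RNA from frozen skeletal muscle, in a series whose title names SOCS-3. The TG group comprised 3 mice labelled transgenic, and the WT group 3 mice labelled wild type, with 1 array per mouse. The labels do not state what the transgene carries, which promoter drives it, the strain, age or sex of the mice, or which muscle was taken. They also give no time of day, so no array could be set against a known sampling hour. Each subject has its own label, so p-values measure the spread between these mice.

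The clock is a feedback loop of transcription that runs once per day in almost every cell. CLOCK and BMAL1, the product of Arntl, bind E-box sequences and activate the Per, Cry, Nr1d1, Dbp and Bhlhe40 genes. PER and CRY proteins then inhibit CLOCK and BMAL1, while REV-ERB alpha, the product of Nr1d1, represses Arntl through RORE sequences. In mouse tissues, muscle included, the Arntl transcript therefore peaks at nearly the opposite time of day to those of Nr1d1, Dbp and Per3. The level of these genes in a tissue sample follows the hour at which the animal was killed.

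All values below are log2 expression as deposited, differences are TG minus WT, intervals are at 95%, and adjusted p-values come from limma with Benjamini-Hochberg adjustment over the 19938 genes, with a threshold of 0.05. Array medians lay between 5.98 and 6.04, and arrays correlated at 0.9947 to 0.9959 within groups and at 0.9943 to 0.9960 between groups. The labelled tissue was checked against 12 skeletal muscle fibre markers, whose mean log2 level was 13.23 to 13.24 on the TG arrays and 13.25 to 13.29 on the WT arrays. Acta1, the skeletal actin gene, averaged 14.59 in both groups, and the fast myosin gene Myh4 14.29 in TG and 14.26 in WT, while the slow fibre gene Myh7 was at 6.26 in TG and 6.29 in WT. None of the 12 passed the threshold. Without overlap between groups, 2 of the 12 were lower in TG, the fast myosin gene Myh2 (-0.30, SE 0.14) and the fast troponin gene Tnni2 (-0.05). The fast myosin gene Myh1 (0.06) was the 1 higher in TG without overlap. Of all genes, 7.76% were lower and 4.52% higher without overlap. These are bulk samples, in which fewer cells of a type and less RNA per cell cannot be told apart.

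Promoter sequences were searched for the elements through which clock proteins are known to act on clock genes. The RefSeq table of build GRCm38.p6 held 12 promoters for 8 of the 10 genes, since some genes have several starts. Each window ran from 250 bases before to 50 bases after a gene start. Windows were searched on both strands for the E-box CACGTG, which CLOCK and BMAL1 bind, and the D-box TTANGTAA, which DBP binds. The cyclic AMP response element TGACGTCA and the RORE that REV-ERB alpha binds were searched likewise. The RORE was searched as 11 letters that end in GGTCA, so close variants of any motif were not counted. The motifs searched do not overlap one another in the sequences below. An E-box was found in 7.15% of the 32851 promoters of this length in the table, a D-box in 2.32%, a cyclic AMP response element in 1.79% and a RORE in 0.384%. The 5 windows shown are those of 4 core clock genes that held a motif and of Ciart, a clock repressor gene whose pattern over the arrays is described further on. Capitals mark the motifs.
Arntl promoter, chr7:113207261-113207560, plus strand: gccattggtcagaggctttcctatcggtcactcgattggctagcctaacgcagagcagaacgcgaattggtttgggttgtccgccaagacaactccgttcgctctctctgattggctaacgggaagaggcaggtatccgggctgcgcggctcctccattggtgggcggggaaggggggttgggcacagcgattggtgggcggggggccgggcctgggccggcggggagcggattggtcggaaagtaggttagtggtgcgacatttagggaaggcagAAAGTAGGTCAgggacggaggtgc
Per1 promoter, chr11:69098699-69098998, plus strand: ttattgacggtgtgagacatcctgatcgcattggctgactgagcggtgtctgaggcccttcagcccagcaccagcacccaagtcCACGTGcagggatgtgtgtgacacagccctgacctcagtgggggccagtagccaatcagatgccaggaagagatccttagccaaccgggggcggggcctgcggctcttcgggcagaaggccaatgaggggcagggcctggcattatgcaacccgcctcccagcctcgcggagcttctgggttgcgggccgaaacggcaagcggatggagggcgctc
Per3 promoter, chr4:151044616-151044915, minus strand: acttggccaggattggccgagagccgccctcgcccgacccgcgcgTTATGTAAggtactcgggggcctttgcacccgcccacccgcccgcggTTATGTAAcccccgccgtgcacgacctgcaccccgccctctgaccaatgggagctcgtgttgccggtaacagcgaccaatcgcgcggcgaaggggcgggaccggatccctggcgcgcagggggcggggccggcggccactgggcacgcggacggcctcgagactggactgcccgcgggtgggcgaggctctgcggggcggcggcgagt
Cry1 promoter, chr10:85185005-85185304, minus strand: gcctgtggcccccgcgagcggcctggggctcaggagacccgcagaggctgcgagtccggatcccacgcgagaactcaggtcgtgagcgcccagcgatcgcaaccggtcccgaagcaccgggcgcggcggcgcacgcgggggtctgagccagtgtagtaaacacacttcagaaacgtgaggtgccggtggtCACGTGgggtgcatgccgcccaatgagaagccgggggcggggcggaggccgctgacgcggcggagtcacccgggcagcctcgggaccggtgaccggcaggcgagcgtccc
Ciart promoter, chr3:95882179-95882478, minus strand: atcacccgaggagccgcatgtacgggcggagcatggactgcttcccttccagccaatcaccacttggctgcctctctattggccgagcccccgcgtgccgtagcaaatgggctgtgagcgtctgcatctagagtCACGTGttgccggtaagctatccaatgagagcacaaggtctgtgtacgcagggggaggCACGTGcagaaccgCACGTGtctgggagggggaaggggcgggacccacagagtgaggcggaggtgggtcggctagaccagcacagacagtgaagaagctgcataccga

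The Arntl window shown held 1 match to the RORE letters searched, at bases 27 to 37 after the start. A similar stretch further upstream in this window, which ends in GGTTA, did not match and is unmarked. Per3 held 2 D-boxes, which began 205 and 158 bases before its start. The Per1 and Cry1 windows shown each held 1 E-box, beginning 166 and 60 bases before the start, and Ciart held 3, beginning 116, 58 and 44 bases before it. Arntl and Per1 each had another window, at a different start, with no match to the letters searched. The other Arntl window also holds the unmatched stretch that ends in GGTTA. The windows of Clock, Cry2, Nr1d1 and Dbp held none of these letters, and no window of the 8 genes held the letters TGACGTCA. Sequence outside the windows was not searched, so the genes may hold these elements elsewhere. A match is a stretch of letters and was not tested for binding in these muscles.

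None of the 10 clock genes differed between TG and WT past the threshold, where 0.00502% of all genes did (1 of 19938). At an unadjusted p under 0.05 there was 1 of the 10, Bhlhe40, which was lower in TG, against 6.75% of all genes in either direction and 4.79% lower in TG. Of the 10 differences, 2 were above 0 and 8 below, with a median of -0.12, beside a median of -0.016 over all genes tested. Of all 19938 genes, 8728 were above 0 and 11210 below. The TG and WT arrays did not overlap for 1 of the 10, again Bhlhe40, with all TG values below all WT values, as 7.76% of all genes had, and no clock gene had all its TG values above all its WT values, as 4.52% of all genes had.

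**Figure D1:**
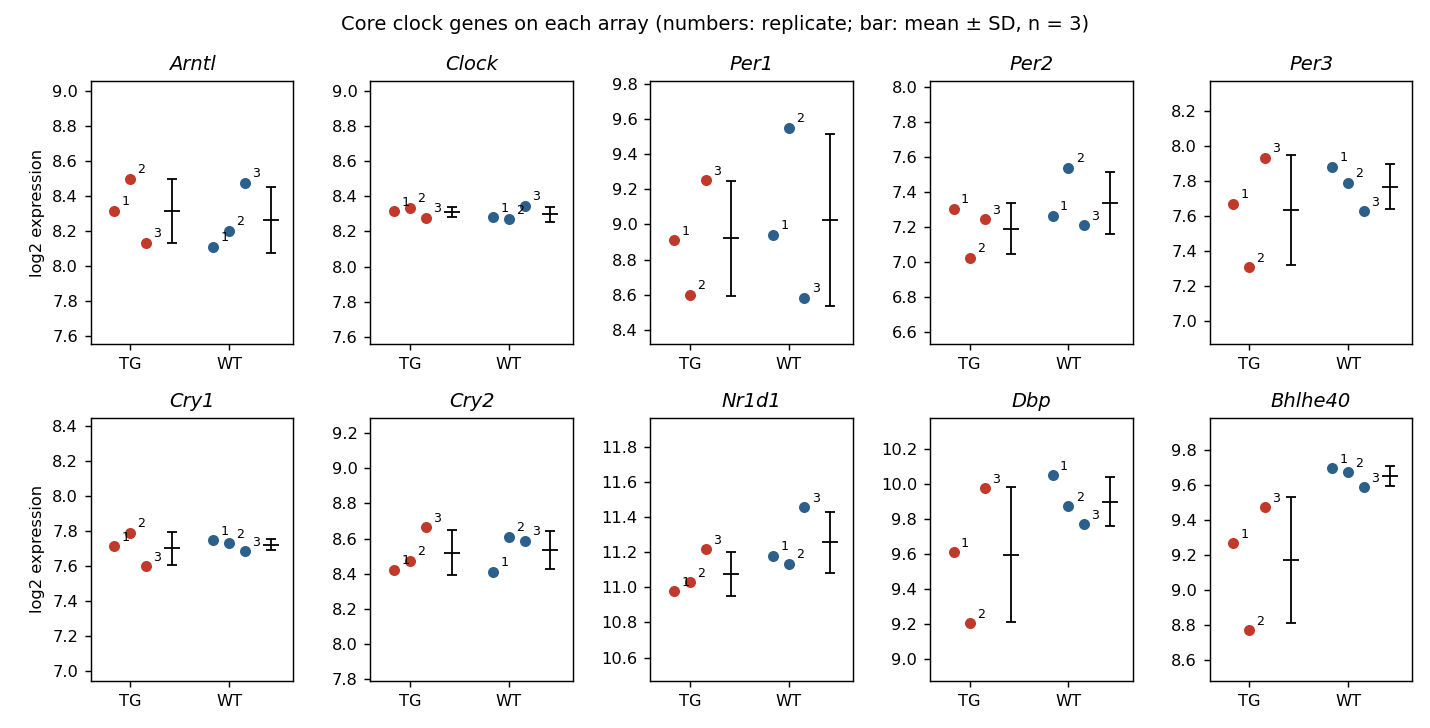
Log2 expression of the 10 core clock genes on each array, with TG left and WT right in each panel. Points are single arrays and the bar beside them is the mean with its SD over 3 arrays. Bhlhe40 is the gene whose TG points (8.77 to 9.47) all lie below its WT points (9.59 to 9.69).

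The 2 genes of the positive arm had nearly equal group means. Arntl, which encodes the activator BMAL1, had 8.32, 8.50 and 8.13 on the TG arrays, against 8.11, 8.20 and 8.48 on the WT arrays. High and low values occurred in both groups, with TG array 2 and WT array 3 at the top and WT array 1 and TG array 3 at the bottom. The difference was 0.05 (SE 0.13, interval -0.24 to 0.35; limma, adjusted p = 0.953). Clock, which encodes the partner of BMAL1, had 8.31, 8.34 and 8.28 in TG, against 8.28, 8.27 and 8.35 in WT. It spanned 0.08 over the 6 arrays, the narrowest range of the 10 genes, and differed by 0.01 (SE 0.06, interval -0.14 to 0.16; limma, adjusted p = 0.984). Clock transcript is known to vary little over the day in many mouse tissues.

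The 3 period genes varied more between mice of one group than between the groups. Per1, a repressor gene that also responds quickly to glucocorticoids and cyclic AMP, had 8.91, 8.60 and 9.25 in TG, against 8.94, 9.55 and 8.58 in WT. The highest and the lowest of these both came from WT mice, arrays 2 and 3, and lay 1.96-fold apart. The group difference was -0.10 (SE 0.25, interval -0.70 to 0.49; limma, adjusted p = 0.953).

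Per2, the second repressor of this family, had 7.30, 7.03 and 7.25 in TG, against 7.26, 7.54 and 7.21 in WT. WT array 2 was again the highest, TG array 2 was the lowest, and the other 4 arrays lay close together in both groups. Per2 differed by -0.15 (SE 0.11, interval -0.41 to 0.12; limma, adjusted p = 0.822), and the difference was -0.05 without WT array 2 and -0.06 without TG array 2. Per3, a family member that follows the clock output closely but is dispensable for the rhythm in mice, had 7.67, 7.31 and 7.93 in TG, against 7.88, 7.79 and 7.63 in WT. The TG arrays held both the highest and the lowest value and so enclosed the WT arrays. Per3 differed by -0.13 (SE 0.15, interval -0.49 to 0.23; limma, adjusted p = 0.886), and without TG array 2 this became 0.03.

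Both cryptochrome genes were close to level. Cry1, the stronger repressor of CLOCK and BMAL1, had 7.71, 7.79 and 7.60 in TG, against 7.75, 7.73 and 7.68 in WT. The 3 WT arrays lay within the span of the TG arrays, and the difference was -0.02 (SE 0.07, interval -0.19 to 0.15; limma, adjusted p = 0.971). Cry1 lies on chromosome 10, on which several genes with small unadjusted p are found. In the order of tested genes, 26 lie between Cry1 and Chpt1 (0.50, SE 0.08), 31 between Cry1 and Utp20 (0.52, SE 0.07), 41 between Cry1 and Apaf1 (1.01, SE 0.12) and 43 between Cry1 and Slc25a3 (-0.56, SE 0.07), and none of these 4 passed the threshold (limma, adjusted p from 0.221 to 0.455). Cry2, the other cryptochrome gene, had 8.42, 8.47 and 8.67 in TG, against 8.41, 8.61 and 8.59 in WT. It differed by -0.02 (SE 0.09, interval -0.23 to 0.20; limma, adjusted p = 0.983), with the groups interleaved. Once all arrays shared 1 median, the Cry2 difference was 0.003.

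Nr1d1, which encodes the nuclear receptor REV-ERB alpha, had 10.98, 11.03 and 11.22 in TG, against 11.18, 11.13 and 11.46 in WT. TG arrays 1 and 2 lay below every WT array, and TG array 3 lay above 2 of the 3. The difference was -0.18 (SE 0.11, interval -0.43 to 0.07; limma, adjusted p = 0.792), and it was -0.08 without WT array 3.

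Dbp, an output activator of the D-box genes and among the most rhythmic transcripts known, had 9.61, 9.20 and 9.98 in TG, against 10.05, 9.87 and 9.77 in WT. TG array 2 was the lowest, and TG array 3 lay within the WT span. Dbp differed by -0.30 (SE 0.18, interval -0.73 to 0.13; limma, adjusted p = 0.796), which became -0.10 without TG array 2 and -0.49 without TG array 3.

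Bhlhe40, which encodes the E-box repressor DEC1 and also responds to hypoxia and many other stimuli, had 9.27, 8.77 and 9.47 in TG, against 9.69, 9.67 and 9.59 in WT. Each TG value was below each WT value, and the TG mice spread far more (SD 0.36, n = 3) than the WT mice (SD 0.06, n = 3). The difference of -0.48 (SE 0.16, interval -0.86 to -0.10), or 1.40-fold lower in TG, had an unadjusted p of 0.0205 in limma and did not pass over all genes (limma, adjusted p = 0.710). TG array 2 carried much of the size, since the difference was -0.28 without it. Over the alternatives its adjusted p ranged from 0.498 to 0.937.

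Markers of other cell types were read beside Bhlhe40 because some moved in the same order. Of the 3 measured of 5 Schwann cell markers, 3 were below 0, with a list mean of 7.35 to 7.50 in TG and 7.52 to 7.56 in WT, and summed linear levels of 815 to 885 in TG and 861 to 900 in WT. Adipocyte markers had 6 of 6 above 0, with a list mean of 6.64 to 6.81 in TG and 6.41 to 6.51 in WT and summed levels of 2240 to 2520 in TG and 2050 to 2284 in WT. Macrophage markers had 9 of 9 above 0, at 6.34 to 6.61 in TG and 6.19 to 6.38 in WT and summed levels of 807 to 1007 in TG and 754 to 848 in WT. None of the markers was listed at 0, and none of these lists had a gene past the threshold. Among all 19938 genes, 8728 were above 0 and 11210 below. Over the 6 arrays Bhlhe40 correlated at 0.995 with the Schwann cell list mean, -0.88 with the adipocyte mean and -0.85 with the macrophage mean, as descriptions over arrays that also differ by group. These were the largest in size among the marker lists and were picked for it. The other marker lists ran from -0.84 (erythroid, 1 gene measured) to 0.55 (skeletal muscle fibre), with fibroblast at -0.74. The mean of the genes that follow body temperature had -0.88. The part of any of these lists in the Bhlhe40 difference was not tested.

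**Figure D2:**
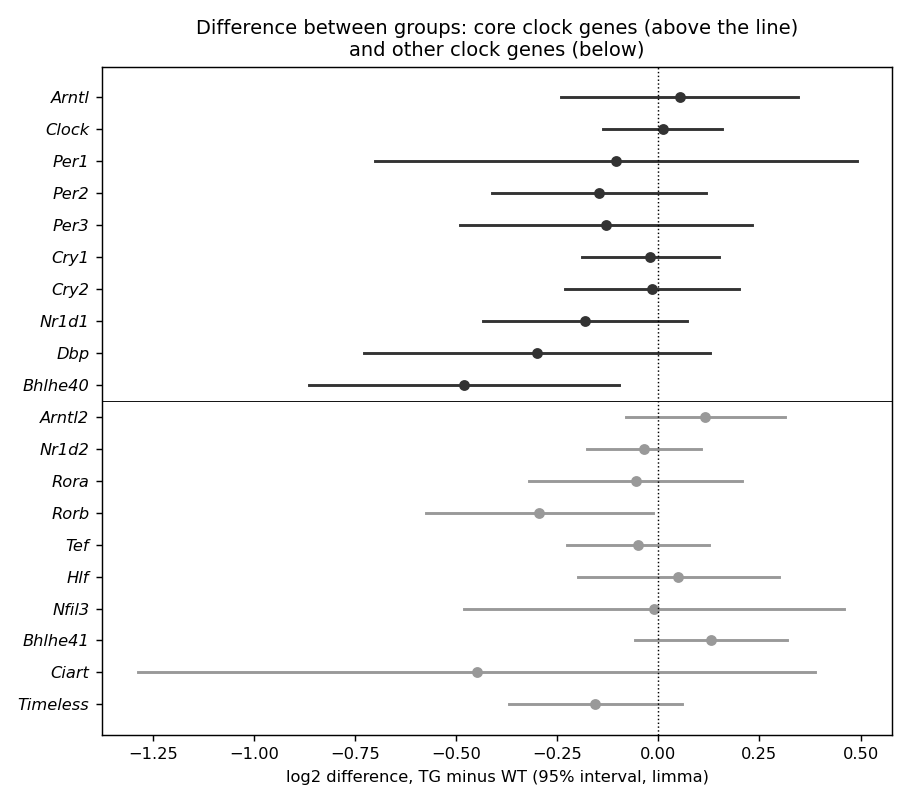
Log2 difference, TG minus WT, of the 10 core clock genes and the 10 other clock genes measured. Points are the limma estimates with 95% intervals, and the vertical line is at 0. The intervals of Bhlhe40 (-0.86 to -0.10) and Rorb (-0.58 to -0.01) do not reach 0, and neither gene passed after adjustment over all genes.

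The spread among mice of one group was wide for most of these genes. Within-group SDs had a median of 0.17 for the 10 clock genes, against 0.11 over all genes, and 8 of the 10 were above that median. For Per1, Per3, Dbp and Bhlhe40 the within-group SD was above the 90th percentile of all genes, 0.22. For 7 of the 10 the difference between groups was smaller than the SD within groups. The share of all genes for which this holds was not computed, so the count describes these 10 genes only. Probe sets differ in binding strength, so the levels of different genes were not ranked against each other.

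Several of the genes varied together from mouse to mouse. TG array 2 was lowest of the 6 for Per2, Per3, Dbp and Bhlhe40 and highest for Arntl and Cry1. TG array 3 and WT array 1 had the opposite pattern, with low Arntl and high Dbp and Per3. TG array 1 was never the highest and was the lowest for 1 gene, Nr1d1, and WT array 3 joined high Arntl to the highest Nr1d1.

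**Figure D3:**
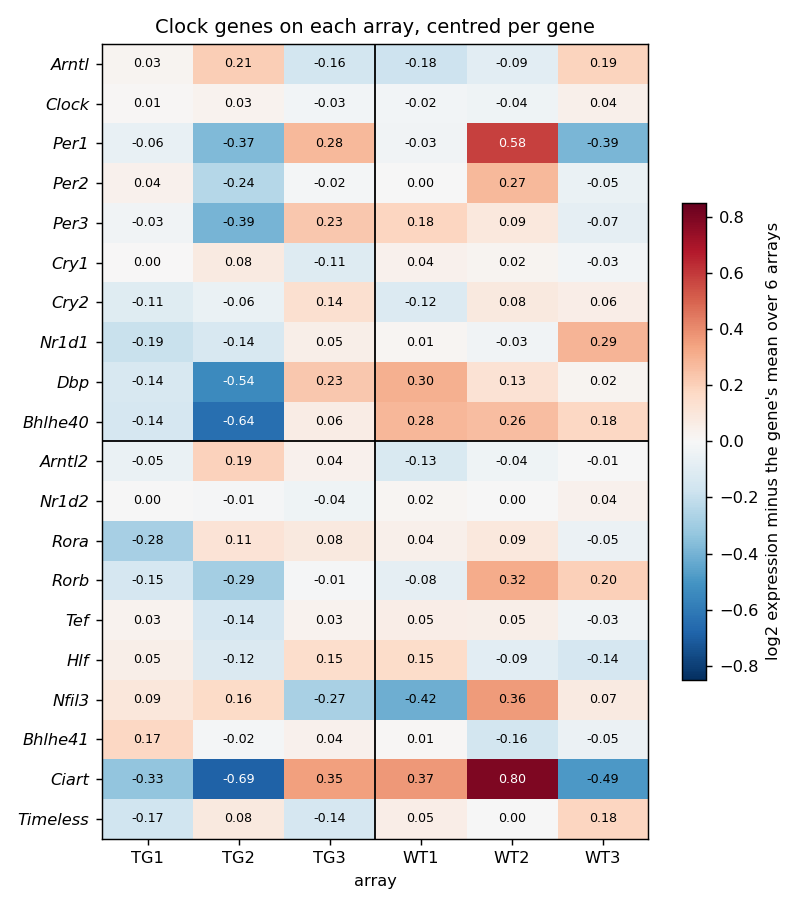
Log2 expression of the clock genes and of the other clock genes measured, centred on each gene's mean over the 6 arrays, with the TG arrays in the left columns and the WT arrays in the right columns. Colour and printed number give the deviation in log2 units. In the TG array 2 column Arntl is above its mean and Per3, Dbp and Bhlhe40 are below theirs, and the TG array 3 and WT array 1 columns have the opposite signs for Arntl, Per3 and Dbp.

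Arntl was set against each of the other 9 genes over the 6 arrays, with exact two-sided permutation tests over the 720 pairings and Benjamini-Hochberg adjustment over the 9 pairs. Per3 ran opposite to Arntl (Pearson r = -0.904, exact permutation p = 0.0028, adjusted p = 0.025), and this was the 1 pair past the threshold. Its rank correlation was -0.943 (exact permutation p = 0.0167, adjusted p = 0.075). Without the 2 arrays farthest from the Arntl median, TG array 2 and WT array 3, r was -0.96. Within groups, after the group means were taken out, r was -0.91 with an exact permutation p of 0.0278, the smallest that 36 pairings within groups can give, and an adjusted p of 0.125.

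Dbp also ran opposite to Arntl, at r = -0.820 (exact permutation p = 0.0319, adjusted p = 0.0958) and rho = -0.943 (exact permutation p = 0.0167, adjusted p = 0.075). Without TG array 2 and WT array 3 its r was -0.996. Once all arrays shared 1 median, the Dbp pair passed as well, at r = -0.885. Clock ran with Arntl at r = 0.941 (exact permutation p = 0.0194, adjusted p = 0.0875), with rho = 0.714 (exact permutation p = 0.136, adjusted p = 0.245), over a range of Clock values of 0.08.

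Per1 followed Per3 and Dbp more loosely, at r = -0.755 with Arntl (exact permutation p = 0.0792, adjusted p = 0.178) and rho = -0.714, with r from -0.91 to -0.66 when any 1 array was left out and -0.17 over the 4 arrays left without the 2 farthest. Bhlhe40 had r = -0.631 and rho = -0.714 (exact permutation p = 0.157 and 0.136, adjusted p = 0.283 and 0.245). Within groups its r was -0.78, with the same smallest possible p as Per3 (exact permutation p = 0.0278, adjusted p = 0.125). Over all groups, its r was -0.25 without TG array 2 and -0.94 without WT array 3. Per2 had r = -0.569 and rho = -0.543 (exact permutation p = 0.276 and 0.297, adjusted p = 0.415 and 0.446). The Per2 value turned to 0.25 without the 2 farthest arrays. Cry1 (r = 0.386, rho = 0.200), Cry2 (-0.125, 0.029) and Nr1d1 (0.088, -0.257) had exact permutation p-values from 0.475 to 1.0, adjusted 0.611 to 1.0. For Nr1d1, WT array 3 set the value, since r was -0.81 without that array and -0.96 without it and TG array 2.

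**Figure D4:**
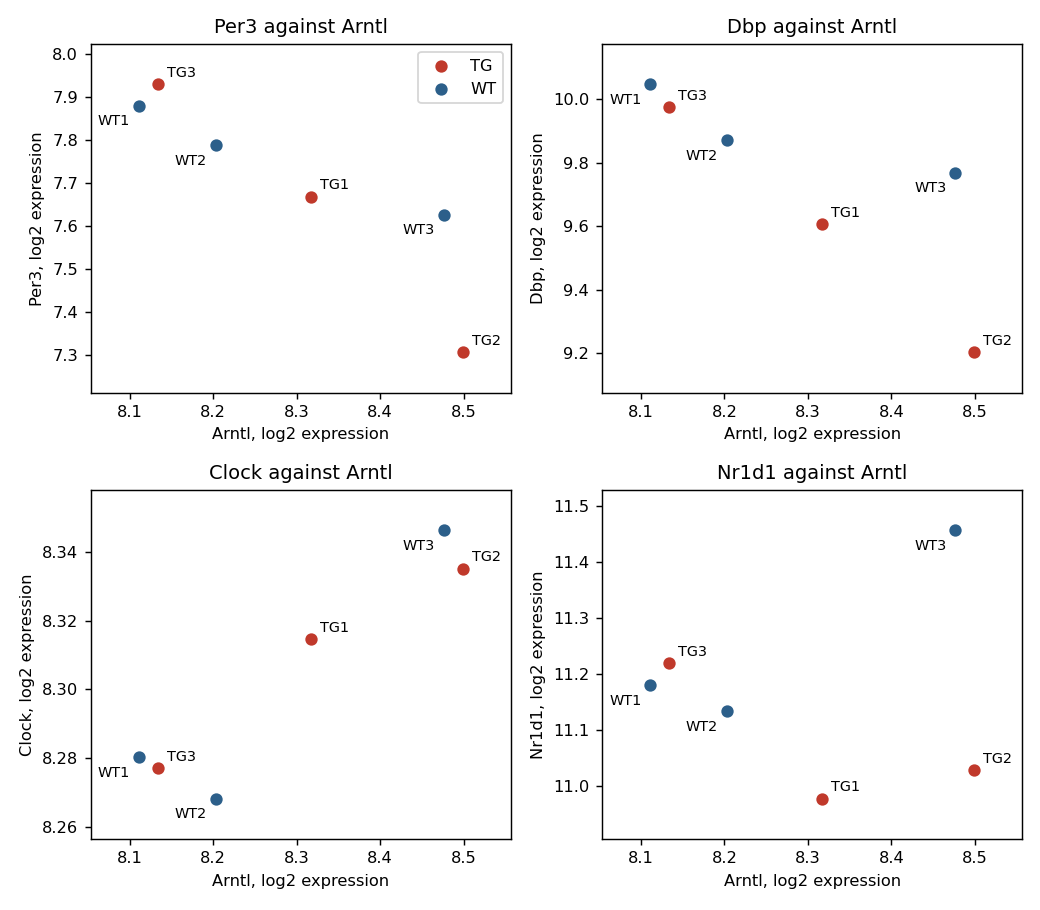
Log2 expression of clock genes (y axes) against Arntl (x axes), 1 point per array, TG and WT in separate colours and each point labelled with its array. Per3 and Dbp lie lower on arrays where Arntl is higher (r = -0.904 and -0.820), and TG and WT points are mixed along the Arntl axis.

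A clock index was computed per array to compare the arrays along this axis, as the mean of Dbp, Nr1d1 and Per3 minus Arntl, each gene first centred on its mean over the 6 arrays. The TG arrays had -0.15, -0.57 and 0.33, against 0.34, 0.15 and -0.11 on the WT arrays. TG array 3 was next to WT array 1 at the high end, TG array 1 was next to WT array 3 in the lower part, and TG array 2 stood alone at the low end. The index averaged -0.13 ± 0.45 over the TG mice and 0.13 ± 0.23 over the WT mice (SD, n = 3 each). The difference of -0.26 was smaller in size than the SD among TG mice, 0.45, and larger than the SD among WT mice, 0.23. Leaving out TG array 2 gave -0.04 and leaving out TG array 3 gave -0.48, and without WT array 1 the difference was -0.15. With Nr1d2, Tef and Hlf added to the one arm and Clock to the other it was -0.14. No test was made of the index, which is built from the clock genes themselves. Among its parts, r with the index was 0.98 for Dbp, 0.99 for Per3, -0.91 for Arntl and 0.31 for Nr1d1. Nr1d1 thus followed the index only loosely although it is part of it.

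Dbp minus Arntl, the difference of their log2 levels on the same array, was 1.29, 0.70 and 1.84 in TG, against 1.94, 1.67 and 1.29 in WT. These carry each probe set's own brightness and can be compared only between arrays. The order of the arrays was that of the index, which holds both genes, with TG array 2 lowest and TG array 1 level with WT array 3.

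A second index, the mean of Per1 and Per2 minus Nr1d1, was 0.18, -0.17 and 0.08 in TG, against -0.03, 0.46 and -0.51 in WT. It separated WT arrays 2 and 3, which the first index placed near the middle, and averaged 0.03 ± 0.18 over the TG mice and -0.03 ± 0.48 over the WT mice (SD, n = 3 each). The widest gap on it therefore lay between 2 WT mice.

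The list of other clock and clock-output transcription factor genes had 12 members, of which 10 were analysed here. None passed the threshold, 1 of the 10 had an unadjusted p under 0.05, against 6.75% of all genes, and 3 were above 0 and 7 below, with a median of -0.04. Over all 20 clock genes measured, 5 were above 0 and 15 below, beside 8728 above and 11210 below among all 19938 genes. Clock genes vary together, so these signs are not independent.

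Nr1d2, which encodes REV-ERB beta, had 10.52, 10.51 and 10.48 in TG, against 10.54, 10.52 and 10.56 in WT. All TG values lay below all WT values, as for 7.76% of all genes, by a difference of -0.03 (SE 0.06; limma, adjusted p = 0.933). With a common array median the Nr1d2 groups overlapped. Rorb, a ROR receptor gene whose product activates through ROREs, had 4.58, 4.43 and 4.72 in TG, against 4.65, 5.04 and 4.93 in WT. Its difference was -0.29 (SE 0.12), with an unadjusted p of 0.0420 in limma (adjusted p = 0.738), at levels below the array medians. Rora, the related receptor gene expressed in muscle, differed by -0.06 (SE 0.11), with 9.31, 9.70 and 9.67 in TG against 9.63, 9.68 and 9.54 in WT.

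Tef and Hlf encode D-box activators of the DBP family, and Nfil3 a D-box repressor. Tef had 10.01, 9.84 and 10.01 in TG, against 10.03, 10.03 and 9.95 in WT, and Hlf had 7.41, 7.24 and 7.52 in TG, against 7.52, 7.28 and 7.23 in WT. Tef was lowest on TG array 2, as Dbp was, and Hlf was low there and on WT arrays 2 and 3. Their r with Arntl over the 6 arrays was -0.84 for Tef and -0.82 for Hlf. Nfil3 had 8.73, 8.80 and 8.36 in TG, against 8.22, 8.997 and 8.71 in WT, with an r of 0.56 with Arntl. Their group differences were -0.05 for Tef, 0.05 for Hlf and -0.01 for Nfil3 (SE 0.08, 0.11 and 0.20).

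Ciart, which encodes CHRONO, a repressor of CLOCK and BMAL1, had the widest range of the 20 genes. It had 7.92, 7.57 and 8.60 in TG, against 8.62, 9.05 and 7.77 in WT, a 2.80-fold span. TG array 3 stood with WT array 1, WT array 3 lay between TG arrays 1 and 2, and WT array 2 was the highest. Its second probe set had 7.31, 6.74 and 8.09 in TG, against 8.08, 8.32 and 7.35 in WT, in nearly the same order. The group differences of the 2 probe sets were -0.45 (SE 0.36; limma, adjusted p = 0.825) and -0.54, and their r with Arntl was -0.87 and -0.89. Where each probe set lies in the genome was not determined here. The promoter of Ciart, shown above, was the one with 3 E-boxes.

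Bhlhe41, which encodes the E-box repressor DEC2, paralogue of DEC1, had 10.52, 10.33 and 10.38 in TG, against 10.36, 10.19 and 10.29 in WT, a difference of 0.13 (SE 0.08). Its sign was opposite to that of Bhlhe40, and its groups overlapped. Arntl2, which encodes the BMAL1 paralogue BMAL2, had 5.73, 5.97 and 5.81 in TG, against 5.65, 5.74 and 5.77 in WT (difference 0.12, SE 0.08). Timeless, named after a fly clock gene and known in mammals for its part in DNA replication, had 5.69, 5.94 and 5.72 in TG, against 5.92, 5.86 and 6.04 in WT (difference -0.16, SE 0.09).

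Among 18 listed kinases, ligases and cofactors that act on clock proteins, 16 were measured, 9 above 0 and 7 below, with a median of 0.010. Of these 16, 0 had an unadjusted p under 0.05 in limma, against 6.75% of all genes. The kinase genes Gsk3b and Csnk1d, whose products phosphorylate clock proteins, were at -0.10 and 0.08 (SE 0.06 each), Fbxw11, a ligase gene for PER proteins, at 0.08, and Prkaa2, a catalytic AMPK subunit gene, at -0.10.

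Genes known as rhythmic outputs in muscle or several tissues were measured for 20 of 22, with 8 above 0, 12 below and a median of -0.04. None passed the threshold and 4 of the 20 had an unadjusted p under 0.05, against 6.75% of all genes. These were Myod1, the myogenic factor gene bound by CLOCK and BMAL1 (-0.48, SE 0.17), Leo1 (-0.22, SE 0.08), the uncoupling protein gene Ucp3 (0.21, SE 0.07) and the cell cycle kinase gene Wee1 (-0.18, SE 0.08). Their limma adjusted p-values lay between 0.710 and 0.738. Across arrays the list mean followed the clock index at r = 0.77. Chosen after their values were seen, Tcap, the titin cap gene, and Coq10b were the 2 of the 20 with r of at least 0.8 with the index (0.92 and 0.91), as were 2.87% of all genes.

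Signals that can shift the Per genes apart from the time of day were read from fixed lists. Glucocorticoid-responsive genes, 12 measured, had 6 above 0 and 6 below and a median of 0.009. Dusp1, a phosphatase gene, was the 1 of the 12 with an unadjusted p under 0.05 (-0.81, SE 0.19; limma, adjusted p = 0.627), against 6.75% of all genes. The mean of these 12 was 10.12, 9.95 and 9.98 in TG, against 9.79, 10.54 and 9.74 in WT, so WT array 2 was the highest, as it was for Per1 and Per2. Over the 6 arrays this mean correlated with Per1 at 0.78. Other list means had an r with Per1 of like size. It was 0.78 for the rhythmic outputs, which share genes with this list, and 0.88 for the other clock genes. For the genes that follow body temperature it was -0.77. Immediate early genes also had their highest mean on WT array 2, with 7.77, 7.87 and 7.61 in TG, against 7.70, 8.24 and 7.86 in WT. Their mean correlated with Per1 at 0.38. Of 23 immediate early genes, 18 were below 0 and 7 had an unadjusted p under 0.05, all lower in TG, as 4.79% of all genes were, with a median of -0.18 and none past the threshold. Among them Egr3 was at -0.39 (SE 0.11), Nr4a1 at -0.44 (SE 0.13) and Ier2 at -0.45 (SE 0.18). Dusp1, which is on both lists, was also among these 7. The part of either list in the Per1 and Per2 values was not tested.

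Feeding also sets the phase of peripheral clocks. Of 12 measured genes that follow feeding and fasting in muscle, 9 were above 0 and 3 below, with a median of 0.16. Of the 12, 3 had an unadjusted p under 0.05 in limma, 2 higher and 1 lower in TG, against 6.75% of all genes. Without overlap between groups were 3 higher and 1 lower in TG, against 4.52% and 7.76% of all genes. The 3 were the desaturase gene Scd1 at 0.54 (SE 0.11), the lipogenic factor gene Srebf1 at -0.38 (SE 0.10) and Ucp3 at 0.21 (SE 0.07). The lipase inhibitor gene Angptl4 followed at 0.27 (SE 0.13), and none of the 12 passed the threshold (limma, smallest adjusted p = 0.546). The mean of this list followed the clock index at r = -0.25.

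The mean of the genes that follow body temperature ran opposite to the clock index. It was 10.09, 10.39 and 9.83 in TG, against 9.95, 9.86 and 10.05 in WT, highest on TG array 2 and lowest on TG array 3, with r = -0.94 against the index. Of the 9 measured, 6 had an r below 0 and 5 an r of -0.8 or lower, as had 3.21% of all genes. These 5 were the chaperone genes Hspa1a, Hspa8, Hsph1, Dnaja1 and Hsp90aa1, of which Hspa8 and Hsph1 were named after their values were seen. Hspa1a, the inducible heat shock protein gene, had 8.09, 9.25 and 7.30 in TG, against 7.38, 7.40 and 7.91 in WT. Hsp90aa1, another inducible chaperone gene, had 10.41, 11.18 and 9.74 in TG, against 9.94, 9.89 and 10.28 in WT. The 3 with an r above 0 were the cold-induced genes Cirbp (0.50) and Rbm3 (0.40), also named after their values were seen, and the chaperone gene Dnajb1 (0.13). Between groups 7 of the 9 were above 0, with a median of 0.07. Dnajb1 was the 1 of the 9 with an unadjusted p under 0.05 (-0.18, SE 0.07; limma, adjusted p = 0.738), against 6.75% of all genes.

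The genes most like the clock index were sought among the genes outside the core 10 with an SD of at least 0.3 over the 6 arrays, from 599 such genes. The 8 with the highest r were H2-Q4 (0.903), Tonsl (0.902), Obox6 (0.880), Gm13884 (0.861), H4c6 (0.845), Ciart (0.836), Prickle4 (0.830) and Clec4a3 (0.829). Ciart was thus the sixth from the top, and several of the others, such as Obox6 at 2.93 in TG and 3.22 in WT, were dim. The 8 with the lowest r were Hspb1 (-0.995), Klhl40 (-0.992), Srxn1 (-0.987), Xirp1 (-0.987), Sap30 (-0.982), Ifrd1 (-0.979), Enah (-0.975) and Atf3 (-0.974). An r of 0.9 or higher was found for 2 of the 599 and of -0.9 or lower for 30. These are correlations over 6 points that share the same 6 hybridisations, picked as the extremes of many genes, and no p is given.

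Hspb1 encodes a small heat shock protein, Xirp1 an actin-binding protein of muscle that marks fibre damage and regeneration, Klhl40 a thin filament stabiliser and Atf3 a stress-induced transcription factor. Hspb1 had 10.93, 11.48 and 10.51 in TG, against 10.50, 10.70 and 10.94 in WT, the reverse of the index order except that TG array 1 and WT array 3 changed places. Xirp1 had 11.02, 11.66 and 10.11 in TG, against 9.85, 10.41 and 10.99 in WT, and spanned 3.50-fold. Atf3 had 9.29, 9.96 and 7.92 in TG, against 7.87, 8.59 and 8.72 in WT, and spanned 4.26-fold. None of the 16 genes differed between groups past the threshold.

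**Figure D5:**
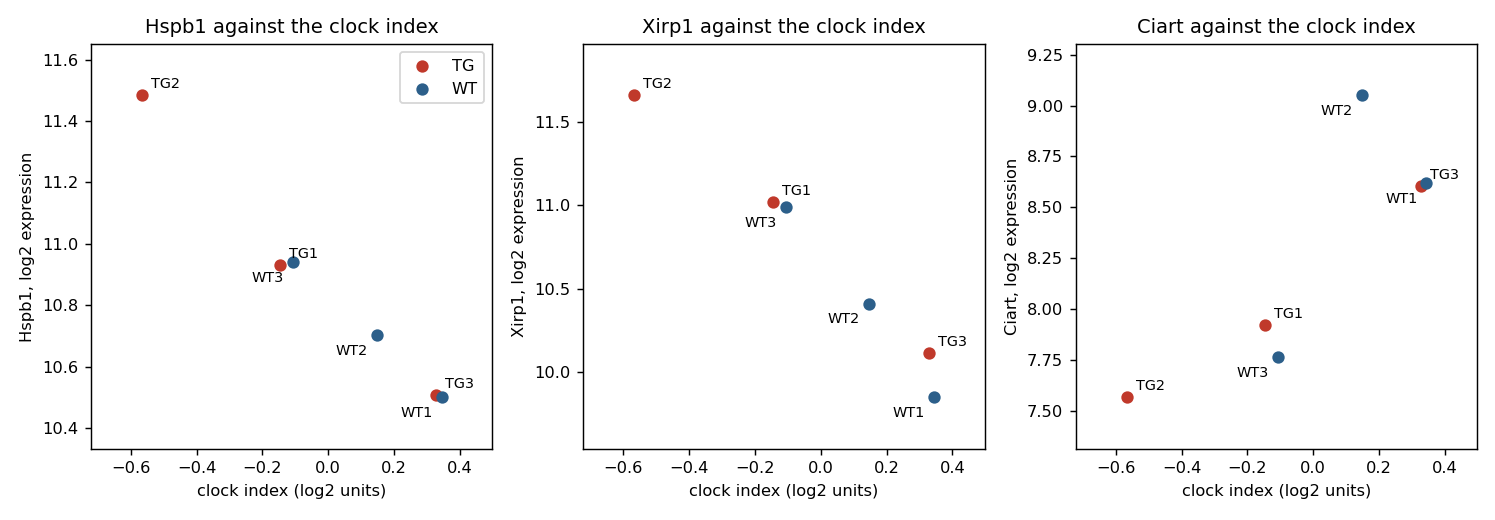
Log2 expression of Hspb1, Xirp1 and Ciart (y axes) against the clock index in log2 units (x axes), 1 labelled point per array, TG and WT in separate colours. Hspb1 and Xirp1 are high on TG array 2 at the left and low on TG array 3 and WT array 1 at the right (r = -0.995 and -0.987), while Ciart is low on TG array 2 and highest on WT array 2 (r = 0.836).

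Marker lists of other cell types were also set against the index. The Schwann cell list mean, given above, had r = 0.85 with it and the macrophage mean -0.67. The mean of 6 fibroblast markers had r = -0.71, with 5 of 6 above 0, at 9.69 to 9.90 in TG and 9.71 to 9.77 in WT, and summed linear levels of 9892 to 11535 in TG and 9616 to 10434 in WT. Hepatocyte transcripts are not made by skeletal muscle in quantity. The mean of 13 hepatocyte markers was 6.41, 7.85 and 5.33 in TG, against 6.77, 7.33 and 7.43 in WT, with r = -0.65 against the index. TG array 2 had the highest and TG array 3 the lowest level, and the summed linear level ran from 593 to 4410 in TG and from 1836 to 3275 in WT. Of the 13 markers, 12 were below 0 in the group comparison, as were 11210 of all 19938 genes, and none was listed at 0. An r of -0.8 or lower with the index was found for 1 of the 13, against 3.21% of all genes. Bone and osteoclast markers, 5 of 6 above 0, had means of 7.13, 6.53 and 6.05 in TG, against 6.17, 5.89 and 6.19 in WT, with summed levels of 448 to 1057 in TG and 378 to 479 in WT. The bone mean had r = -0.55 with the index. The part of any of these marker lists in the clock values was not tested.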

How the data were processed

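RNA of 6 frozen mouse muscles was labelled with biotin, per the labels' protocols, and, per the series' design text, hybridised to Affymetrix MoGene arrays. A single table was deposited by the authors, holding log2 values of 35557 probe sets. The scale was inferred from the range of the values. How probe sets were summarized and normalized is not stated in the labels or the table. Values were used as deposited, and 0 columns were left out. By the platform annotation 21789 probe sets had 1 gene symbol, 1621 several and 12147 none. Each gene was read from its brightest probe set, which gave 19938 genes. Arrays were grouped by label, and replicate numbers follow deposit order, so they pair no animals.

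The main test was a two-sided moderated linear model (limma 3.58.1, R 4.3.3; functions lmFit and eBayes) with Benjamini-Hochberg adjustment over all genes, and the fit was tested on simulated data. Correlations used exact permutation in Python 3.11.15 with scipy 1.17.1, and figures matplotlib 3.10.9. Named were all core clock genes, all measured genes of the list of other clock genes, up to 4 genes of each other list by smallest p, and the 8 genes at either end of the correlation with the clock index. Outside this rule, after their values were seen, were named Hspa8, Hsph1, Cirbp, Rbm3, Tcap, Coq10b, Acta1, Myh7, Chpt1, Utp20, Apaf1 and Slc25a3. The genes and lists were chosen with earlier results of these data known. The alternatives were other variance models, array weights, genes above the median level, other probe set rules, quantile normalization, a common array median, rank correlation, deviations from group means, more genes in the index and each array left out. The number of arrays limits the precision.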

Additional observations from a re-analysis of the deposited data

How the results depend on the processing

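The count of clock genes past the threshold stayed at 0 of 20 under all 14 alternatives run, and the differences of Bhlhe40, Dbp, Nr1d1 and Per2 stayed below 0 under each. Over all genes, 1 passed, against 7 with an intensity trend, 0 with robust variance, 0 with a common array median, 2 among genes above the median level and 0 to 0 when 1 array was left out. Of the Arntl pairs, 1 passed, against 0 by Spearman rho, 0 with deviations from the group means, 2 with a common array median and 0 to 0 when 1 array was left out, where the smallest exact permutation p over 5 arrays is 0.0083. Leaving out 1 array put 2 to 5 clock genes without overlap, against 2 over all arrays, with Bhlhe40 and Nr1d2 among them each time and the others lower in TG (Nr1d1, Dbp and Rorb without TG array 3, Timeless without TG array 2, Rorb without WT array 1, Tef and Ciart without WT array 3) or higher (Arntl2 without TG array 1, Bhlhe41 without TG array 2 or WT array 1). Of all genes, 11.4% to 15.7% were then lower and 7.9% to 9.7% higher without overlap. With a common array median Nr1d2 overlapped and Arntl2 was higher without overlap, as it was with quantile normalization. The signs of near-zero values turned. The Cry2 difference was 0.0028 with a common median, and leaving out 1 array moved the differences of Arntl between -0.039 and 0.16, Clock between -0.0043 and 0.035, Per1 between -0.33 and 0.16, Per3 between -0.28 and 0.034, Cry1 between -0.064 and 0.031 and Cry2 between -0.089 and 0.032. The r of Arntl with Cry2 was 0.029 by Spearman rho and -0.56 to 0.23 when 1 array was left out, and that with Nr1d1 was -0.26 by Spearman rho, -0.028 with a common median and -0.81 to 0.45 when 1 array was left out. The cause was not tested. Npas2 was not measured, so the index with more genes was computed without it. No paired analysis was possible because the replicate numbers follow deposit order and pair no animals. With raw intensities not used here, signal over background was not assessed.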
